A study of Mus musculus with 50 samples.

Results

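The transcripts described here are those of 8 Krüppel-like factors, Klf2, Klf3, Klf4, Klf6, Klf7, Klf10, Klf13 and Klf16, in 50 single mouse cells. They were taken by symbol from the deposited expression table, which held 11879 gene rows, and all 8 symbols had a row. The cells were induced hemogenic endothelial cells (iHECs), cells with endothelial features from which blood cells can arise, grown in plates from embryonic stem cells of C57BL/6 background. Those stem cells (iRunx1-ESCs) carried a Runx1 cassette at the Rosa26 locus that doxycycline switches on, and the differentiation medium held BMP4, VEGF and supernatants of cytokine-producing AFT024 cells, with doxycycline added for the later phase. The study defined iHECs by the surface profile CD31+CD41lowCD45-c-kit+CD201high, and single sorted cells were amplified and sequenced. All cells belonged to this 1 group, no untreated or flow-exposed cells were analysed here, and no label names an animal or a culture. The 50 cells were therefore 1 sample without replicates. Spreads below are spreads between cells, and no significance test was made.

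Krüppel-like factors are transcription factors that bind GC-rich and CACCC sequences through zinc fingers at the carboxy terminus, while their differing amino-terminal parts recruit activators or repressors. In endothelium, Klf2 and Klf4 are best known as the factors that laminar blood flow switches on, through the kinases MEKK3, MEK5 and ERK5 and the MEF2 factors, and that keep vessels quiescent, anti-inflammatory and anti-thrombotic. Klf6 responds early to vessel injury and acts on TGF-beta pathway genes, Klf3 represses through CtBP, and Klf10, Klf13 and Klf16 can repress through Sin3.

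Start regions of 6 of the 8 genes were found in RefSeq (GRCm38.p6), each with 250 bases before and 50 bases after the transcription start. Those of Klf2 (chr8:72318812-72319111, plus strand) and Klf4 (chr4:55532426-55532725, minus strand) are shown because the joint presence of these flow-linked genes is reported below. Capitals mark the GC box GGGCGG on either strand and, in Klf2, the match to the MEF2 consensus.
Klf2: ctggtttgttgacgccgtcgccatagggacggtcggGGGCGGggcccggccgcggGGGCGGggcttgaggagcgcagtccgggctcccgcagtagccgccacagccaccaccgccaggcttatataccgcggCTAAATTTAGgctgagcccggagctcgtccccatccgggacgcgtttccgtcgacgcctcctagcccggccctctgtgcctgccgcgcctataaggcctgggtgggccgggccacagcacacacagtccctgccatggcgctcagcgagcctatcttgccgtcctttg
Klf4: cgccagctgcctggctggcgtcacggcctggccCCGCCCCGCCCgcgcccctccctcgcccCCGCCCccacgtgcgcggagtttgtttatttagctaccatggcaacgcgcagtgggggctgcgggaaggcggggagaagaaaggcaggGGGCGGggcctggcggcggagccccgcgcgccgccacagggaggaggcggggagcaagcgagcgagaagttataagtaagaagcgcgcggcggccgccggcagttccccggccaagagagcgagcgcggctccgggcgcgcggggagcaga
The MEF2 consensus, searched on both strands, had 1 match in the Klf2 window, which began 118 bases before the start (position -118). The other 5 windows (Klf3, Klf4, Klf6, Klf7 and Klf13) had no match, and 3.19% of the 32851 RefSeq start regions of this length hold one. GC boxes were found 2 times in Klf2, 4 times in Klf4, where the first pair overlaps, 6 times in Klf3, 3 times in Klf13 and 1 time each in Klf6 and Klf7, against 35.7% of all windows with at least 1. The letters CACCC, searched on both strands, occurred 5 times in Klf3, 3 times in Klf7, 1 time each in Klf2 and Klf13 and not in Klf4 or Klf6, and 57.5% of all windows hold them. None of the 6 windows held the CArG consensus, TGACGTCA or TGACTCA, which were present in 1.63%, 1.79% and 5.20% of all windows. The GC content of the 6 windows was 58.3% (Klf7) to 76.7% (Klf3), and the median of all windows was 52.7%. Such matches describe letters only.

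The deposited unit was TPM, a transcript abundance scaled for gene length and to a common total, which keeps no sequencing depth. A gene was counted as present in a cell above TPM 1. Cells had 2400 to 8615 genes above that level (median 6224), and 7 cells had fewer than 5000. The lowest was cell 4-6, named by the pair of numbers in its title. The first of these numbers runs from 1 to 4 (11, 14, 13 and 12 cells), and its meaning is not given. Ranges over it are given below as a description, since its groups are parts of the same 50 cells and no replicates. Values of rho named below for their size were picked over these same cells, so their signs within the numbers are no independent support. Endothelial identity was checked with 6 markers (Pecam1, Cdh5, Esam, Tek, Tie1 and Emcn), each of which was above TPM 1 in at least 45 cells. The blood markers Ptprc and Cd48 were listed at 0 in all 50 cells, as was the mesenchymal marker Col3a1, while Laptm5 was present in 48 cells, Coro1a in 21 and Rac2 in 10. The sort itself selected on CD31 and CD45, the proteins of Pecam1 and Ptprc, so these genes were no independent check. Summed over the 6 blood markers, cells ranged from 1.08 to 1847 TPM. Of the 5 erythroid markers with a row, at least 1 was above TPM 1 in 5 cells, led by the embryonic globin Hbb-bh1 (4 cells, highest 820.9 TPM), and Gata1 was listed at 0 in all 50. The 5 mesenchymal markers with a row summed to at most 9.15 TPM in a cell. The part of these markers in the values below was not tested. Hprt and Tbp, broadly expressed genes, were listed at 0 in 3 and 13 cells, and a 0 is for this reason given only as listed.

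Klf6 and Klf3 were the most abundant of the 8 transcripts and the pair found in every cell, and Klf4 was the least abundant. Klf6 ranged from 1.65 to 1164 TPM with a median of 165 TPM. Klf3 ranged from 1.02 to 508 TPM with a median of 154 TPM. Both were above TPM 1 in 50 of 50 cells (exact Clopper-Pearson 95% interval 92.9% to 100%, covering counting error over cells only). Of all rows of the table, 7.15% were present in all 50 cells. Klf7 (median 99.4 TPM, highest 325 TPM) was present in 43 cells, Klf2 (median 85.3 TPM, highest 690 TPM) in 42, Klf13 (median 54.9 TPM, highest 307 TPM) in 49 and Klf10 (median 46.45 TPM, highest 440 TPM) in 44. Thus 6 of the 8 genes were present in at least 80% of cells, as were 28.8% of all rows. Klf16 reached 89.0 TPM, with a median of 11.2 TPM and 33 cells above TPM 1 (66%, 51.2% to 78.8%). Klf4 reached 54.8 TPM, was listed at 0 in 31 cells and was above TPM 1 in 12 (24%, 13.1% to 38.2%). By median TPM, Klf6 stood above 91.6% of all rows, Klf2 above 85.1% and Klf16 above 59.6%, whereas the median of Klf4 was 0.

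**Figure D1:**
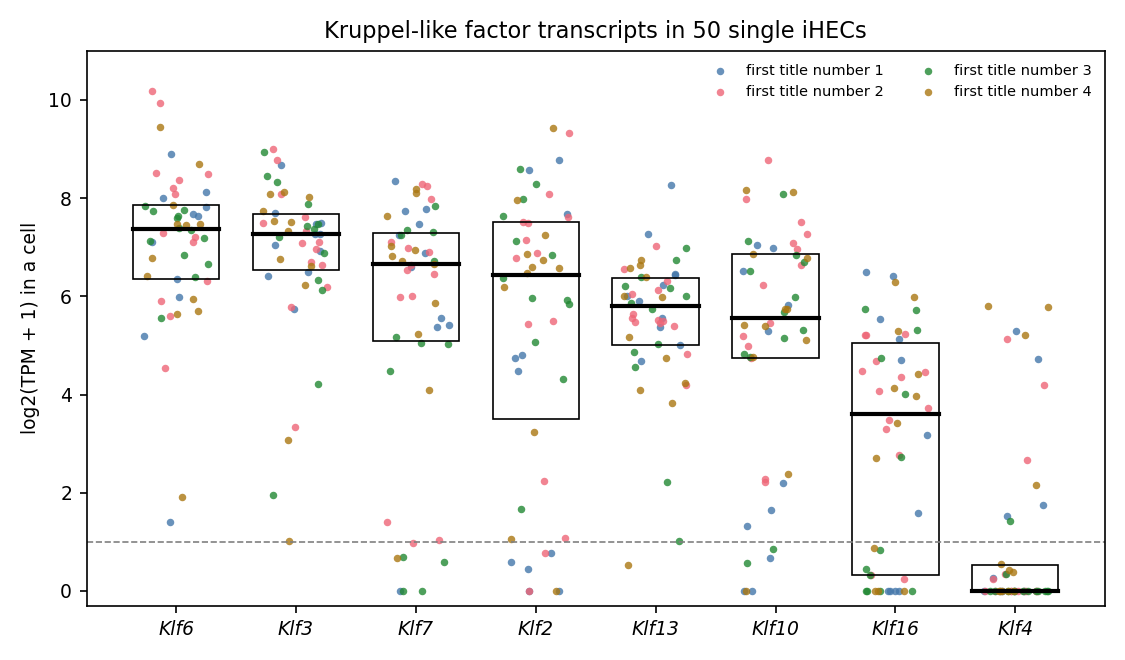
Level of each gene in each cell as log2(TPM + 1), with 1 point per cell coloured by first title number, a box for the interquartile range, a bar for the median and a dashed line at TPM 1. Klf6 and Klf3 lie above the line in all 50 cells, and Klf4 lies above it in 12.

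The order of the medians was not a firm order of the genes, since each gene's interquartile range overlapped that of the next. Klf6 was higher than Klf3 in 27 cells and lower in 23, Klf7 was higher than Klf2 in 25 and lower in 25, and Klf13 was higher than Klf10 in 26 and lower in 24. Klf3 exceeded Klf7 in 35 of 50 cells, Klf10 exceeded Klf16 in 36 with 3 ties, and Klf16 exceeded Klf4 in 33 with 5 ties. Klf6 was the highest of the 8 in 19 cells, Klf3 in 17, Klf2 in 6, Klf7 in 5 and Klf10 in 3. No cell had Klf13, Klf16 or Klf4 as its highest.

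Of the genes linked to flow, Klf2 (chr8:72319033-72321656, plus strand) was the more abundant and the most variable of all 8, with an SD of log2(TPM + 1) over cells of 2.92. It was above 100 TPM in 22 cells, between 10 and 100 TPM in 15 and between 1 and 10 TPM in 5, and of the other 8 cells it was listed at 0 in 4. The highest values were 690 TPM in cell 4-7 and 641 TPM in cell 2-12. The cells at or below TPM 1 were unevenly placed, with 5 of the 11 cells of first title number 1, 2 of 14 of number 2, none of number 3 and 1 of 12 of number 4. The median of Klf2 was accordingly 21.4 TPM among cells of number 1 and 82.3 to 112 TPM in the other numbers, and rho values within each number are given below. Klf4 (chr4:55527143-55532466, minus strand), which is also one of the classical reprogramming factors, split into 7 cells above 10 TPM, 5 cells between 1 and 10 TPM and 38 cells at or below TPM 1. The cells above 10 TPM were 4-2 (54.8 TPM), 4-7 (54.1 TPM), 1-3 (38.1 TPM), 4-4 (36.3 TPM), 2-13 (33.9 TPM), 1-14 (25.55 TPM) and 2-6 (17.4 TPM). Its 12 cells were spread over the first title numbers as 4, 3, 1 and 4.

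Klf6 (chr13:5861482-5870394, plus strand), the injury-responsive factor, was above 100 TPM in 35 cells, and 2 cells stood at or below 10 TPM, cell 1-9 at 1.65 TPM and cell 4-6 at 2.78 TPM. The top values were 1164 TPM in cell 2-8 and 973 TPM in cell 2-12, and the medians by first title number lay between 142 and 213 TPM. Klf7 (chr1:64029447-64122282, minus strand), its closest relative in sequence and known for roles in neurons, was above 100 TPM in 25 cells and at or below TPM 1 in 7. Of those 7 cells, 4 had first title number 3, where the median of Klf7 was 32.2 TPM against 94.7 to 118 TPM in the other numbers. Both factors were thus abundant, with a low tail of cells for Klf7.

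Among the repressors, Klf3 (chr5:64803388-64832901, plus strand) was above 100 TPM in 35 cells and at or below 10 TPM in 4, namely 4-6, 3-15, 4-13 and 2-15. Klf13 (chr7:63886351-63938915, minus strand) had the smallest spread of the 8, with an SD of log2(TPM + 1) of 1.404 and 41 of 50 cells between 10 and 100 TPM. Its lowest value was 0.45 TPM, in cell 4-6, and its highest was 307 TPM, in cell 1-7. The median SD was 1.00 over all rows present in every cell and 2.14 over rows present in at least 10 cells. Klf10 (chr15:38291463-38300706, minus strand), a gene that TGF-beta induces, was above 100 TPM in 16 cells and peaked at 440 TPM in cell 2-15. Its median was 3.62 TPM among the cells of first title number 1 and 47.01 to 86.03 TPM in the other numbers. Klf16 (chr10:80567124-80577321, minus strand) stayed below 100 TPM in all 50 cells and was listed at 0 in 11. It was present in 6 of the 13 cells of first title number 3 and in 12 of the 14 of number 2. Annotated genes without a row of their own overlap Klf3, Klf7 and Klf13, in each case with at least 1 on the opposite strand, and use of strand in the estimates is not stated, so reads of these could not be told apart.

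Most cells held nearly the whole set. The median cell had 7 of the 8 genes above TPM 1, with a range of 3 to 8. All 8 were present in 6 cells (12%, 95% interval 4.53% to 24.3%), 7 in 24 cells, 6 in 11, 5 in 6, 4 in 2 and 3 in 1. In cells with 7 of the genes, Klf4 was the absent one in 21 of 24 and Klf16 in 3, so no other gene was ever the single one missing. The 7 genes other than Klf4 were present together in 27 cells (54%, 39.3% to 68.2%). Klf3, Klf6, Klf7 and Klf13 were present together in 43 cells, and Klf2, Klf3, Klf6 and Klf13 in 41. The 6 cells with all 8 genes were 1-3, 1-8, 2-6, 2-13, 4-2 and 4-11. At the other end, cell 4-6 had only Klf2 (88.3 TPM), Klf6 (2.78 TPM) and Klf3 (1.02 TPM) above TPM 1, and this cell also had the fewest genes of any kind. Over all cells, how many of the 8 genes were present was weakly related to the total of genes present per cell (Spearman rho 0.21). Summed over the 8 genes, cells held 93.1 to 1951 TPM with a median of 700.5 TPM.

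**Figure D2:**
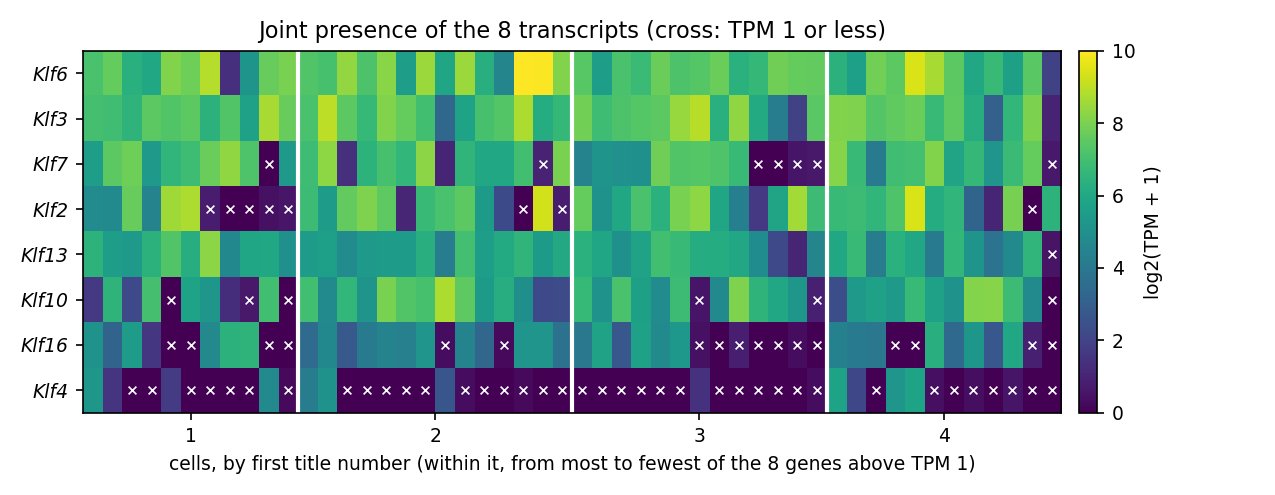
Heat map of log2(TPM + 1) for the 8 genes (in order of median TPM) in the 50 cells, grouped by first title number and sorted within it by the number of genes present, with a cross where a gene was at or below TPM 1. Crosses are densest for Klf4 (38 cells) and Klf16 (17 cells), and 5 of the 8 crosses of Klf2 are in first title number 1.

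Klf2 was present in 11 of the 12 cells with Klf4 (91.7%, 61.5% to 99.8%) and in 31 of the 38 without it (81.6%, 65.7% to 92.3%), so the intervals of the shares overlapped. Both were above TPM 1 in 11 cells (22%, 11.53% to 35.96%), Klf2 alone in 31, Klf4 alone in 1 and neither in 7. The share with both was 27.3%, 21.4%, 7.69% and 33.3% for first title numbers 1 to 4. In the 12 cells with Klf4, Klf2 ranged from 0.36 TPM in cell 1-14 to 690 TPM in cell 4-7, and Klf2 was the higher of the pair in 10. Cell 4-7 held the highest Klf2, the second highest Klf4 and the third highest Klf6 (693 TPM) of all cells, and had the largest sum. Over the 50 cells the ranks of Klf2 and Klf4 had a rho of 0.14, between -0.08 and 0.72 within the first title numbers. In the 8 cells without Klf2, the group of Klf3, Klf6 and Klf13 was present in 8 and Klf7 in 7.

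Between members, levels mostly varied apart from one another. Spearman rho over the 50 cells, given as a description since the cells share a protocol of sorting and amplification and possibly library pools, had a median of 0.06 over the 28 pairs and ran from -0.19 (Klf7 with Klf10) to 0.44. For comparison, the median rho of a member with all rows present in at least 10 cells was 0.02 (the median of the 8 medians). Of the pairs, 3 were above 0.3, 12 were below 0 and none was below -0.3. The members of these 3 pairs were above 0.3 with 5.88% (Klf3), 3.58% (Klf7), 7.84% (Klf13) and 2.25% (Klf16) of all rows. Klf3 with Klf13 had a rho of 0.44, Klf7 with Klf16 of 0.44 and Klf7 with Klf13 of 0.40. The Klf7 and Klf16 pair was positive within each of the 4 first title numbers (0.26 to 0.69), and without the 2 cells farthest from the median of Klf7 its rho was 0.38. Klf3 with Klf13 was positive in 3 of the 4 numbers (-0.16 to 0.80) and Klf7 with Klf13 likewise (-0.25 to 0.83). Without the 2 cells farthest from the median of Klf3 or of Klf7 in turn, their rho was 0.37 and 0.34. A few cells low in several of these genes weighed on both pairs, and the next cut was not made for Klf7 with Klf16. Without the 5 cells with the lowest Klf3, rho was 0.24 for Klf3 with Klf13, 0.22 for Klf7 with Klf13 and 0.06 for Klf3 with Klf7, the last having been 0.27 over all cells. Klf2 with Klf6 had a rho of 0.24 (0.08 to 0.41 within numbers), and Klf2 with Klf3 had 0.01. Klf13 was the member most related to the number of genes per cell (rho 0.34), and the others lay between -0.09 and 0.12. With the number of genes per cell partialled out, the first 3 pairs had values of 0.43, 0.44 and 0.44.

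**Figure D3:**
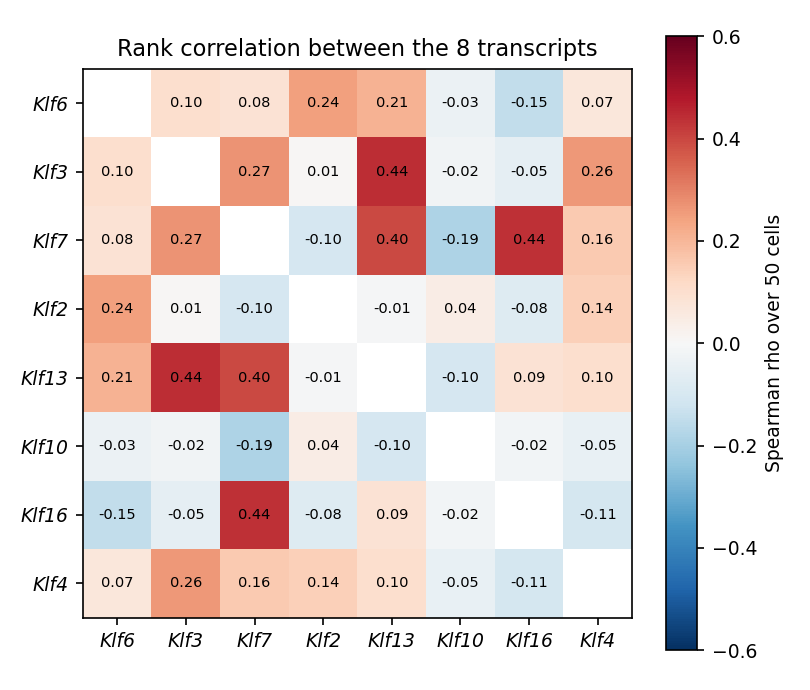
Spearman rho over 50 cells for each pair of the 8 genes, in order of median TPM, on a colour scale from -0.6 to 0.6. The 3 darkest pairs are Klf3 with Klf13, Klf7 with Klf16 and Klf7 with Klf13, and the other values lie between -0.19 and 0.27.

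**Figure D4:**
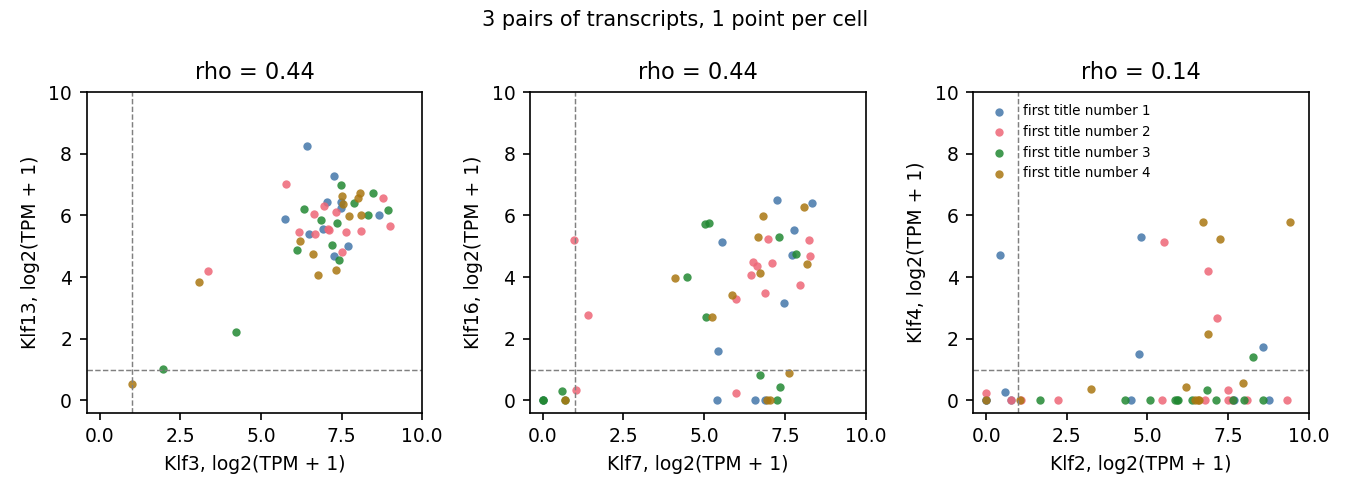
Levels of 3 pairs of genes as log2(TPM + 1), with 1 point per cell coloured by first title number and dashed lines at TPM 1. In the first panel the low cells of Klf3 are also low in Klf13, in the second the cells low in Klf7 are mostly low in Klf16, and in the third most cells, with Klf4 or without it, lie to the right of the line for Klf2.

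Other members of the wider family were present in fewer cells than Klf2, Klf3, Klf6, Klf7, Klf10 and Klf13. Sp1 and Sp3 were in more cells than Klf16 (33 cells), and these, Klf9, Sp2 and Klf11 in more than Klf4 (12 cells). Of 9 further KLF and SP genes with a row, Sp1 (median 5.35 TPM) was present in 39 cells, Sp3 (19.6 TPM) in 36 and Klf9 (10.5 TPM) in 30. Sp2 was present in 25 cells and Klf11, a TGF-beta-inducible relative of Klf10, in 20. Klf5, Klf8, Klf12 and Sp4 were each present in 3 to 6 cells. None of the 9 reached 40 cells, and for those present in at least 10 cells no rho with any of the 8 genes exceeded 0.3, against 1.4% (Klf2) to 7.84% (Klf13) of all rows, a count near those shares for so few genes.

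The next question was whether the level of each factor followed the endothelial program. A list of 20 endothelial genes, among them Pecam1, Cdh5, Cd34, Egfl7 and the Sox7, Sox17 and Sox18 factors, all had a row. The most abundant were Ramp2 (median 1317 TPM), Egfl7 (1044 TPM) and Plvap (714 TPM), each present in 50 cells. The median cell had 19 of them above TPM 1, with a range of 16 to 20, and summed levels ran from 753 to 14130 TPM (median 7837). With most of the 20 present in each cell, the factors were set mainly against levels. With the number of the 20 present, rho ran from -0.16 (Klf2) to 0.25 (Klf13) over the 8 genes. For the number of the 8 genes present it was 0.13. The rho of the number of the 8 genes present with the summed endothelial level was -0.005. Spearman's rho was then taken with every row above TPM 1 in at least 10 cells (9103 besides the gene itself), and values above 0.3 were counted. Over all the lists described below, 49 values passed 0.3, and 41 of these stayed above it with the number of genes per cell partialled out. Of the 8 that did not, 6 were of Klf13, which had 15 in all, and 1 each of Klf3 (with Gata2) and Klf4 (with Ep300). Over all rows, the share of Klf13 above 0.3 was 7.84% before and 3.75% after that step. For the 8 factors together, 3.18% of values over all rows were above 0.3 after it. Values that rose past 0.3 with that step were not counted, such as Klf6 with Cdkn1b (0.29 to 0.34) and Klf16 with Klf9 (0.24 to 0.305). Values below -0.3 were found with 2.89% of all rows for Klf2, more than its 1.4% above 0.3, with 2.31% for Klf7, 1.65% for Klf16, 1.53% for Klf3, 1.38% for Klf4, 1.2% for Klf13, 1.04% for Klf6 and 0.648% for Klf10.

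Klf2 showed little relation to these genes. Its median rho over the 20 was -0.03, against -0.02 over all rows. A rho above 0.3 was found for 1 of the 20, Sox7 (0.33, and 0.20 to 0.53 within first title numbers), against 1.4% of all rows. Its lowest value was -0.26, with Kdr, the VEGF receptor. Klf4 was alike, with a median of -0.03 and none of the 20 above 0.3, against 1.6% of all rows. The highest value of Klf4 was 0.22, with Erg, and the 31 cells listed at 0 are tied in every such rank. Klf10 had a median of -0.01 and none above 0.3, against 2.61% of all rows.

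Klf6 had a median of -0.01 over the 20 but held the strongest single relation. Its rho with Sox17, a factor of arterial and hemogenic endothelium, was 0.49 (0.11 to 0.74 within first title numbers, positive in 4 of 4), and this was the 1 gene of the 20 above 0.3, against 2.55% of all rows. Sox17 was present in 36 cells, with a median of 16.8 TPM and a highest value of 299 TPM. Klf6 was negative with Mmrn2, an endothelial matrix protein (rho -0.35, below 0 in 4 of 4 numbers), against 1.04% of all rows below -0.3.

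Klf3 was the member with the most positive values. It was above 0 with 18 of the 20 genes, and its median was 0.19 against 0.05 over all rows. With a median above 0 over all rows, most rows were also positive with Klf3, and their share was not counted. Above 0.3 were 4 genes, against 5.88% of all rows. These were Cd34 (0.40), Egfl7 (0.35) and Tie1 (0.34), each positive in 4 of 4 first title numbers, and Sox7 (0.32, positive in 3). With the summed level of the 20 genes Klf3 had a rho of 0.39 (0.05 to 0.67 within numbers), while the other members lay between -0.22 (Klf4) and 0.20 (Klf13). The cells with the lowest Klf3, whose omission lowered its rho with Klf13 and with Klf7, were not left out here or for the lists below. Their part in these endothelial values was not tested.

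Klf7, Klf13 and Klf16 were each above 0 with 16 of the 20 genes. Their medians over all rows were also above 0 (0.01 for Klf7, 0.08 for Klf13 and 0.02 for Klf16), and the share of all rows above 0 was not counted. The median of Klf7 was 0.13, and its values above 0.3 were those of Erg (0.33), Egfl7 (0.33) and Flt1 (0.31), 3 of 20 against 3.58% of all rows. The median of Klf13 was 0.15 against 0.08 over all rows, with 1 gene above 0.3, Cd34 (0.36), against 7.84% of all rows. Given the number of genes per cell, Cd34 with Klf13 had a value of 0.28, so that none was left above 0.3. The median of Klf16 was also 0.15, with none above 0.3, against 2.25% of all rows. Erg and Egfl7 were positive with Klf7 in 3 of the 4 first title numbers, and Cd34 was positive with Klf13 in 4.

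**Figure D5:**
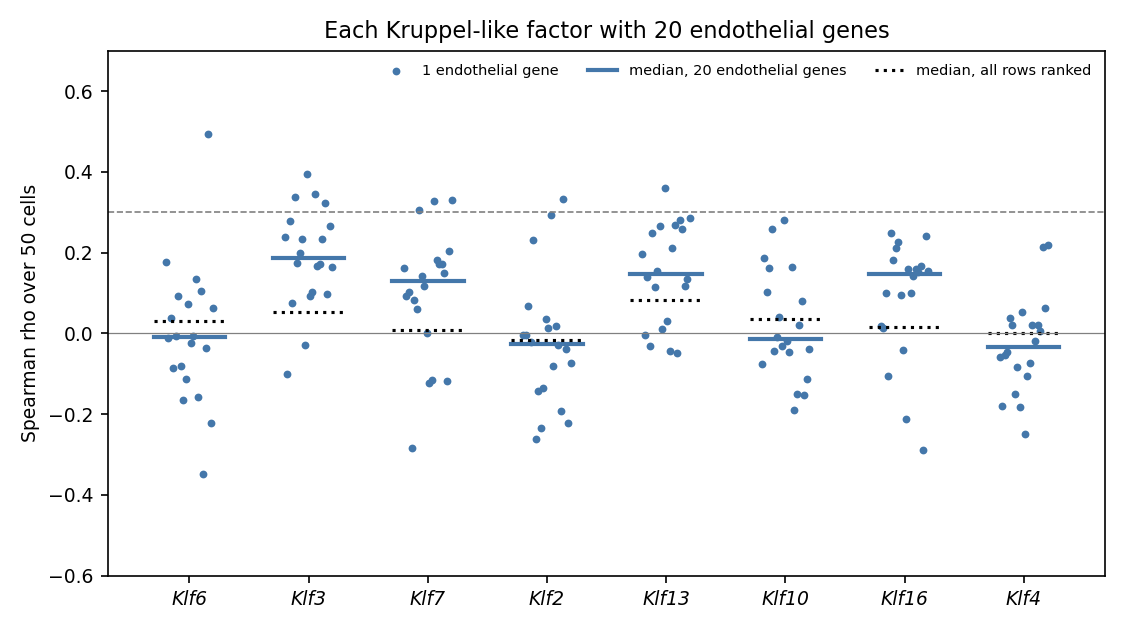
Spearman rho over 50 cells of each gene with 20 endothelial genes (blue points), their median (blue bar) and the median over all rows ranked (dotted bar), with a dashed line at 0.3. The median of Klf3 is 0.19 and those of Klf2, Klf4, Klf6 and Klf10 lie between -0.03 and -0.01, and the highest point is Klf6 with Sox17 at 0.49.

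Genes known to rise in endothelium with flow or with Klf2 and Klf4 were partly present. S1pr1, the sphingosine-1-phosphate receptor, was present in 50 cells (median 245 TPM), Nos3, the endothelial nitric oxide synthase, in 49 (75.3 TPM), Cd59a, a complement inhibitor, in 46 (207 TPM) and Gja4, the gap junction protein of arteries, in 33 (35.9 TPM). The water channel Aqp1 was present in 19 cells, the lipid phosphatase Ppap2b in 17, thrombomodulin (Thbd) in 12, Ass1 in 10, Itpr3 in 9 and Gja5 in 1. Presence was then counted in cells with and without Klf2. Nos3 was found in 41 of the 42 cells with Klf2 and in 8 of the 8 without, Thbd in 10 of 42 and 2 of 8, Gja4 in 28 of 42 and 5 of 8, and Aqp1 in 16 of 42 and 3 of 8. With 8 cells lacking Klf2, no difference in these shares could be resolved. For Klf4 the counts were 12 of 12 and 37 of 38 cells for Nos3, 2 of 12 and 10 of 38 for Thbd, 10 of 12 and 23 of 38 for Gja4 and 6 of 12 and 13 of 38 for Aqp1. By level, the rho of Klf2 was 0.10 with Nos3, -0.02 with Thbd, -0.16 with Gja4 and 0.18 with Ppap2b, its highest of the 8 genes present in at least 10 cells. Klf4 reached 0.22 with Aqp1 and 0.21 with Nos3. Neither Klf2 nor Klf4 passed 0.3 with any of the 8, a count near their shares of all rows (1.4% and 1.6%). The values above 0.3 in this list were 2 of Klf13 and 1 of Klf3, against 7.84% and 5.88% of all rows. They were Klf13 with Gja4 (0.45, and 0.37 to 0.77 within first title numbers), Klf3 with Gja4 (0.33) and Klf13 with Nos3 (0.31), all positive in 4 of 4 numbers. With genes per cell partialled out, the last was 0.275 and the others stayed above 0.3.

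Of genes known to be lowered by Klf2 or Klf4, Icam1, a leukocyte adhesion molecule, was present in 42 cells (median 78.4 TPM) and Adm, the vasodilator adrenomedullin, in 26 (1.12 TPM). Endothelin-1 (Edn1) was present in 8 cells, Angpt2 in 7 and Selp in 3. Klf2 and Adm had a rho of -0.32, below 0 in each of the 4 first title numbers (-0.72 to -0.11), and 2.89% of all rows were below -0.3 with Klf2. For Icam1 the rho was 0.04 with Klf2 and 0.05 with Klf4.

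The kinases and MEF2 factors upstream of Klf2 and Klf4 were widely present. Map3k3 (MEKK3) was above TPM 1 in 42 cells, Map2k5 (MEK5) in 38 and Mapk7 (ERK5) in 40, and Mef2a was present in 46, Mef2c in 49 and Mef2d in 43. The deacetylase Hdac7, a brake on MEF2, was present in 49 cells, and Hdac4 and Hdac5 in 34 and 26. Of the cerebral cavernous malformation complex, which restrains MEKK3, Pdcd10 was present in 48 cells, Ccm2 in 46 and Krit1 in 40, with their membrane partner Heg1 in 34. None of these 13 genes had a rho above 0.3 with Klf2 or Klf4, a count near the shares of all rows (1.4% and 1.6%). Klf2 was highest with Map2k5 (0.25) and lowest with Heg1 (-0.33) and Mef2a (-0.32), each negative in 3 of 4 first title numbers, 2 of 13 against 2.89% of all rows below -0.3. Other members did exceed 0.3, Klf13 with 4 of the 13 (against 7.84% of all rows), Klf7 with Hdac4 and Hdac7 (3.58%), Klf3 with 1 (5.88%) and Klf16 with 1 (2.25%). The largest of these were Klf3 with Mef2a (0.49), Klf16 with Hdac7 (0.41), Klf13 with Mef2d (0.38) and Klf13 with Map3k3 (0.35), and all but the last were positive in 4 of 4 numbers. Given the number of genes per cell, Klf13 kept 2 of its 4, Mef2d and Hdac7, while Map3k3 was at 0.28 and Hdac5 at 0.21.

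Immediate-early genes, which cells switch on within minutes of a stimulus or of handling, were abundant, and Klf6 and Klf13 each had a rho above 0.3 with 4 of the 13 present in at least 10 cells, against 2.55% and 7.84% of all rows. Fos, Junb, Ier2 and Zfp36 were present in 50 cells, with medians of 184, 204, 301 and 152 TPM. Klf6 had a rho of 0.40 with Fos, 0.39 with Jun, 0.38 with Jund and 0.33 with Fosb, and all were positive in 4 of 4 first title numbers. The median of Klf6 over the list was 0.16 against 0.03 over all rows. Those of Klf7 (0.17 against 0.01), Klf4 (0.17 against 0.0005), Klf13 (0.16 against 0.08) and Klf16 (0.16 against 0.02) were as high. Medians of Klf2, Klf3 and Klf10 lay between 0.04 and 0.07. For Klf13 the values were led by Jund (0.42) and Ier2 (0.39), followed by Egr1 (0.37) and Jun (0.31). Given the number of genes per cell, Klf6 kept all 4 and Klf13 kept 3, with Jun at 0.24. Klf7 had a rho of 0.51 with the phosphatase gene Dusp1 and of 0.45 with Ier2, and Klf3 of 0.49 with Jun, against 3.58% and 5.88% of all rows above 0.3. The value with Dusp1 was positive in 4 of 4 first title numbers. Klf7 with Ier2 (-0.09 to 0.83) and Klf3 with Jun (-0.29 to 0.66) were positive in 3. Klf2 passed 0.3 with Zfp36 alone (0.32), Klf4 with Jund (0.33), Klf16 with Dusp1 (0.35) and Klf10 with none, against 1.4%, 1.6%, 2.25% and 2.61% of all rows. The part of cell handling in these values was not tested.

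Genes of the TGF-beta pathway with a tie to Klf6 or Klf10 were present for the most part, with Eng in 50 cells (median 345 TPM), Id1 in 49 (169 TPM), Id3 in 48 (382 TPM) and Acvrl1 in 45 (96.4 TPM). Klf10 had a rho of 0.34 with Id1, positive in 3 of 4 first title numbers, its 1 value above 0.3 among the 8 (2.61% of all rows), and Klf6 had none, near its share of 2.55%. Klf13 exceeded 0.3 with 4 of the 8 genes, Tgfb1 (0.38), Smad7, Tgfbr2 and Id3, against 7.84% of all rows, and with 3 given the number of genes per cell, when Id3 was at 0.24. Klf3 had a rho of 0.32 with Id3 (5.88% of all rows above 0.3), and Klf2 was at -0.31 with Smad7, its 1 value below -0.3 among the 8 (2.89% of all rows). Co-factors of the repressing members were common, with Sin3b present in 50 cells (504 TPM), Hdac1 in 50 (254 TPM), Hdac2 in 49 (219 TPM), Ctbp1 in 48 (85.6 TPM) and Ctbp2 in 46 (22.45 TPM). Klf3 was not above 0.3 with either Ctbp gene or with any of these co-factors, against 5.88% of all rows. Among the 13 co-factors and ubiquitin ligases of the list, Klf7 had a rho of 0.39 with Fbxw7, a ubiquitin ligase subunit (0.22 to 0.71 within first title numbers), its 1 value above 0.3 (3.58% of all rows). Klf4 had 0.30 with the acetyltransferase gene Ep300, positive in 2 of 4 numbers (1.6% of all rows above 0.3), and -0.33 with the ubiquitin ligase gene Smurf1 (1.38% of all rows below -0.3). Klf2 was at -0.36 with Crebbp, the relative of Ep300, and below 0 in 4 of 4 numbers (1 of 13 below -0.3, against 2.89% of all rows). Of the cell cycle inhibitors, Cdkn1a was present in 50 cells (779.5 TPM), Cdkn2d in 42 (84.3 TPM) and Cdkn1b in 43 (10.5 TPM). Klf4 had its highest value there with Cdkn1a (rho 0.30), and Klf3 had a rho of 0.32 with Cdkn2d, against 1.6% and 5.88% of all rows above 0.3. Of 10 cell division genes, Cdk1 was the most abundant (47 cells, median 73.1 TPM). These genes varied from 8.02 to 9509 TPM in sum per cell. None had a rho above 0.3 with any of the 8 factors, against 1.4% to 7.84% of all rows, and 1 was below -0.3, Birc5 with Klf16 (-0.32), against 1.65% of all rows for Klf16.

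Among blood development factors, the induced gene Runx1 was present in 43 cells (median 132 TPM), and its highest rho with the 8 factors was 0.25, with Klf13. Given the number of genes per cell, Klf13 was at 0.17 with Runx1, below Klf16 (0.20) and Klf2 (0.19). Fli1 was present in 50 cells (101 TPM) and Mycn in 41 (79.9 TPM). Klf3 exceeded 0.3 with Fli1 (0.39) and Gata2 (0.30), against 5.88% of all rows, Klf6 with Gfi1 (0.35), against 2.55%, and Klf4 with Sfpi1 (0.31), against 1.6%. With genes per cell partialled out, Gata2 with Klf3 was at 0.28. Fli1 is shared by endothelium and blood, and Gfi1 and Sfpi1 belong to the blood program. Gata1 and Myb were listed at 0 in all 50 cells.

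The genes most like each factor in rank over the 50 cells were mostly from outside these lists. Among those near to Klf2 were Psmg4 (rho 0.48) and Atp2c1 (0.47). Klf3 was nearest to Zfp395 (0.63) and then Sox4 (0.55) and Txnip (0.55), and Klf4 to the lamin gene Lmna (0.49). Klf6 was nearest to Kctd5 (0.56), Klf7 to the calponin gene Cnn2 (0.55), Klf10 to Capza2, an actin capping protein (0.57), Klf13 to Prkab1, a subunit of AMP-activated kinase (0.60), and Klf16 to Clint1 (0.51). The further near genes were Klhl8 and Map2k7 for Klf4, Vwa5a and Stk4 for Klf6, Dapk3 and Pcbp1 for Klf7, B4galt7 and Sgpp1 for Klf10, Rac1 and Ptp4a3 for Klf13 and Arap3 and Sh2d3c for Klf16. These are the top values of 9103 each, and with the cells of a first title number left out in turn the named values ran from 0.23 (Klf2 with Psmg4) to 0.75 (Klf3 with Zfp395). No gene was among the nearest of more than 1 factor.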

How the data were processed

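Single cells (50, 1 library each) were profiled from amplified polyA RNA. The deposited values are TPM per gene and cell, which the authors estimated with StringTie 1.3.4 after HISAT2 2.1.0 alignment to mm10 (SAMtools 0.1.19 is also in the submitters' processing notes). No molecular identifiers were named, and sequencing depth cannot be read from TPM. No cell was left out, no doublet caller was run and cells were not clustered. Each gene's cells above TPM 1 were counted with exact Clopper-Pearson 95% intervals. Spearman's rho over cells was computed with scipy 1.17.1, numpy 2.4.6 and pandas 2.3.3 (Python 3.11.15) for rows above TPM 1 in at least 10 cells, values above 0.3 being counted, and the code was tested on simulated data. Log values used a pseudocount of 1. Figures were drawn with matplotlib 3.10.9. Gene coordinates came from GENCODE M21 (GRCm38, the assembly mm10 names) and start regions from RefSeq.

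The 8 genes and the gene lists were chosen with earlier results of these data known. All 8 are described in full. Of each list, counts, the genes of highest median TPM and those past a rho of 0.3 in size are named (all genes with a row for the flow lists and the ERK5 route), and for each factor the 3 nearest rows, except 1 gene near Klf2 that is not reported here. Genes past 0.3 were named after their values were seen. Alternatives were TPM above 0, 5 or 10, TPM rescaled without 84 ribosomal protein rows, cells with fewer than 5000 genes left out, rho given the number of genes per cell, Pearson's r with pseudocounts of 1 and 0.1, all rows of a list, and each first title number left out. A share was taken as kept within its exact interval, and other values within the SD of the 4 first title numbers.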

Additional observations from a re-analysis of the deposited data

How the results depend on the processing

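With TPM above 5 or above 10 in place of 1, the median cell had 6 of the 8 genes in place of 7, and with every value above 0 the share of cells with both Klf2 and Klf4 was 36% in place of 22%, against 14% above TPM 5 and 12% above TPM 10. These levels by construction count fewer or more values. The median rho of Klf2 with the endothelial genes, -0.03, left its limits when first title number 1, 2 or 4 was left out, with values from -0.0822 to -0.0243 over the 4 omissions. Under the same omissions the median number of genes stayed at 7, the share with both Klf2 and Klf4 was 18.4% to 27.03%, the median rho over pairs was -0.004 (without number 4) to 0.08, and the median rho with the endothelial genes was -0.05 to 0.02 for Klf4 and -0.04 to 0.02 for Klf6. Rescaling, leaving out cells with few genes, partial rho and Pearson's r kept these values within the limits, which are wide. Pearson's r moved the median over pairs from 0.06 to 0.09 and 0.15, leaving out cells with few genes moved the medians of Klf4 and Klf6 to -0.10 and -0.08, and Pearson's r moved that of Klf2 to -0.06 with either pseudocount. The sign of the median of Klf6 turned with Pearson's r (0.01 and 0.02). The share of cells with a single gene stayed within its interval in 68 of 72 values (8 genes under each alternative). The exceptions were Klf3 at TPM above 10 (92%) and Klf13 in 3 settings that raised it to 100%. Leaving out the 5 cells with the lowest Klf3 was chosen after seeing the data, and those values stand beside the pairs. The causes were not tested otherwise. No paired analysis was possible because the cells form 1 group. Without depth, a gene listed at 0 cannot be told from one that was missed.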
